A study of Homo sapiens with 8 samples.

Results

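The genes described here are MYC, its DNA-binding partner MAX and a set of factors that build ribosomes, 34 genes in all, taken by symbol from a named list. All 34 were present in each of the 3 deposited tables, among 17467 genes common to the tables. RNA was sequenced from SUDHL6, an established human diffuse large B-cell lymphoma line of germinal-centre type, so every library comes from 1 line. Cells received the vehicle DMSO, MS8815, EPZ-6438 or MS8815N, each compound at 2.5 µM for 18 h, with 2 libraries per group and 8 libraries in all. Per the labels, MS8815 is a PROTAC (a molecule that brings its target to a ubiquitin ligase for degradation) against EZH2, the histone methyltransferase of polycomb repressive complex 2, EPZ-6438 is an inhibitor of its enzymatic domain, and MS8815N is a non-PROTAC analog used as a control. Since the labels are silent on whether the duplicates were separate cultures, the p-values reflect library-to-library spread that may be only technical. They name 2 library kits without saying which library was made with which.

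MYC binds DNA as a dimer with MAX, at E-boxes whose best-known form is CACGTG, and raises transcription of many genes needed for growth. Ribosomes are made in the nucleolus. RNA polymerase I copies the ribosomal DNA, small nucleolar ribonucleoproteins of the box C/D and box H/ACA classes guide methylation and pseudouridylation of the new RNA, and successive assembly factors fold and cut it into the small and the large subunit. Genes of this pathway are among the most widely reported MYC targets, and high MYC activity is common in aggressive B-cell lymphoma.

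Because MYC and MAX bind at E-boxes, the start sites of the members were searched for CACGTG. The window was 250 bases before to 50 bases after each RefSeq start (GRCh38.p14), 300 bases in all, and 28 members matched the promoter table. CACGTG, which reads the same on both strands, was present for 14 of the 28 members (50%), against 2396 of 27305 genes of the whole table (8.77%) and 1295 of 10351 protein-coding genes of the expression tables (12.5%). The related hexamer CACGCG, searched on both strands and unable by its letters to overlap CACGTG, was present for 9 of 28 members (32.1%), against 13.5% of the whole table and 22.0% of the protein-coding genes. The median GC content of the windows was 65.5% for the members and 64.7% for the protein-coding genes. A match is a description of the letters and no evidence of binding. The following 30-base windows, 5′ to 3′ on the strand of the gene with CACGTG in capitals, show the motif in members of each assembly step that had one.
DDX21 (chr10:68956604-68956633, plus strand): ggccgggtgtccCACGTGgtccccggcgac
LYAR (chr4:4290068-4290097, minus strand): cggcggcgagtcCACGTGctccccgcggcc
GNL3 (chr3:52686026-52686055, plus strand): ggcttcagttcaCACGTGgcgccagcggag
FBL (chr19:39846356-39846385, minus strand): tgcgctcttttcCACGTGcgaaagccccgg
RRP9 (chr3:51941892-51941921, minus strand): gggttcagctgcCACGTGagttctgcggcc
GAR1 (chr4:109815781-109815810, plus strand): gggccagaggggCACGTGgcgccggtgagt
UTP20 (chr12:101280083-101280112, plus strand): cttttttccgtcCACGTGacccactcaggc
WDR43 (chr2:28894658-28894687, plus strand): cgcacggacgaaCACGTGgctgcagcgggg
PES1 (chr22:30591880-30591909, minus strand): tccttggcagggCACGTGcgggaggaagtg
MRTO4 (chr1:19251807-19251836, plus strand): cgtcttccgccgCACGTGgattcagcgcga
Counting the first transcribed base as 1 and the base before it as -1, the motif began at base 7 in both FBL and GNL3, 4 in WDR43, 14 in PES1, 15 in MRTO4 and 32 in GAR1. It began upstream in DDX21 (-31), LYAR (-64), UTP20 (-10) and RRP9 (-5). The windows of BYSL, EBNA1BP2, NOP14 and NOP2 held it as well, and EBNA1BP2 had it at 2 places. No promoter sequence was matched for MYC, BOP1, RRS1, NOLC1, NOP58 and RRP12.

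The members were abundant transcripts, and their levels in vehicle-treated cells spread widely. As normalised count per kilobase of exon (GENCODE 29 gene models on GRCh38), the mean of the 2 DMSO libraries was highest for NPM1, a histone chaperone of the granular component (15174, chr5:171387116-171411137), and NCL, nucleolin, a chaperone of ribosomal RNA (13704, chr2:231453531-231483641). NHP2, a core protein of box H/ACA particles, followed at 8756, and FBL, fibrillarin, the methyltransferase of box C/D particles (chr19:39834458-39846414), at 7835. MYC ranked at 12 of the 34 with 2691 per kilobase, and its 2 DMSO libraries gave 2650 and 2732. Its partner MAX had 795. The lowest levels were those of UTP20, a large scaffold of small-subunit assembly (278), WDR12 (317) and POLR1A, the largest subunit of RNA polymerase I (348). The range over the 2 DMSO libraries of NPM1, 15031 to 15317, lay above that of NCL, 13514 to 13893, while NOP56 (4209 to 4252) and DDX21 (4286 in each library) were almost level. NPM1 has 45 named pseudogenes in the annotation, so reads of the gene and its copies may have been shared and its level is uncertain.

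Several members also carry small nucleolar RNA genes inside their spans. Of the 34 members, 8 (23.5%) held at least 1 such gene, 27 in all, against 222 of 13094 protein-coding genes (1.70%). They were GNL3, NOP56, NOP58, NCL, WDR43, DKC1, PPAN and TSR1. The small RNAs themselves were not analysed here.

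The 2 MS8815 libraries stood apart from the rest in depth and in marker genes, and these values stand beside every MS8815 result. Estimated depth was 13.0 and 14.6 M reads for MS8815, against 26.0 to 34.0 M reads in the other 6 libraries. The 15 pan-B-cell markers, which check the line's identity, were all measured. With MS8815 and in the scale of the MS8815 table, 14 of 15 were lower, with a median log2 fold change of -1.10, and their summed normalised count was 56224 to 56677 against 114057 to 115282 with DMSO. Among 20 adherent-cell genes (keratins, collagens and others), 18 were measured, 16 were higher and 0 lower with a median of 4.02, and the summed count was 23369 to 23395 against 1292 to 1485. Each of the 18 measured adherent-cell markers was above 0 in at least 1 DMSO library and at least 1 MS8815 library. In the scale that joins the 3 tables, in which the members' counts are also given, KRT8 had 5183 and 5139 with MS8815 and 316 and 303 with DMSO. The pan-B genes stayed detected, with CD79A at 16539 and 16776 against 30662 and 31876. In the scale of the MS8815 table again, of the T and NK cell markers 5 of 11 were measured and 1 was lower, with sums of 391 to 486 against 590 to 609. Monocyte and macrophage genes had 5 of 8 measured and 3 higher, with sums of 612 to 692 against 138 to 183 in the same scale. The part of these markers and of depth in the members' values was not tested. In bulk RNA, fewer cells of a type and less RNA per cell cannot be told apart.

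The first comparison sets MS8815 beside DMSO. In the deposited normalisation the members were lower with MS8815. Limma called 31 of 34 lower and 0 higher at an adjusted p under 0.05, against 22.4% of all 18744 genes called lower and 24.5% called higher. Both MS8815 libraries were below both DMSO libraries for 33 of 34 members, against 35.9% of all genes. Of the genes at or above the level of the lowest member, 71.5% had this order. The members are abundant, and abundant genes were called lower more often, 41.3% of the upper 50% by level and 60.0% of the 4422 genes at or above the level of the lowest member. The median log2 fold change over the members was -0.55, against 0.00 over all genes, -0.19 over the upper 50% by level and -0.30 over the genes at member level. The direction depends on the scaling: relative to pan-B-cell genes, which were lower still, 34 of 34 members and 73.2% of all genes were called higher, with a median of 0.55 for the members and 1.07 for all genes.

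**Figure D1:**
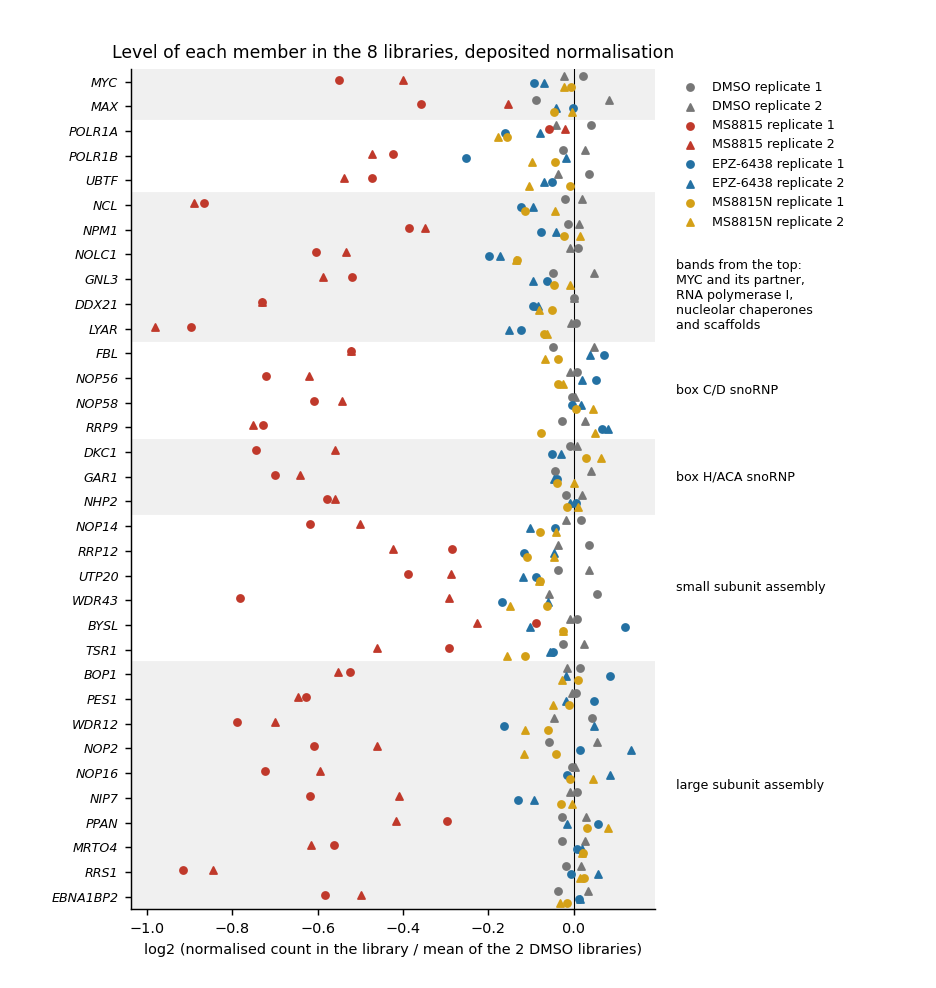
Normalised count of each member in each of the 8 libraries, as the log2 ratio to the mean of the 2 DMSO libraries, in the deposited normalisation. Members are grouped by role. In this normalisation both MS8815 libraries lie below both DMSO libraries for 33 of 34 members, POLR1A being the exception. The same holds for 35.9% of all genes and 71.5% of those at or above the lowest member's level. After scaling to pan-B-cell genes limma calls all 34 higher.

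MYC itself had normalised counts of 5516 and 6125 with MS8815 and 8199 and 7954 with DMSO, 7575 and 7696 with EPZ-6438, and 8042 and 7956 with MS8815N. Both MS8815 libraries were below the other 6. The log2 fold change against DMSO was -0.47 (SE 0.06, 95% interval -0.63 to -0.32, limma adjusted p = 0.00135), a level of 72.1% of DMSO. This call did not hold after quantile normalisation (-0.17, limma adjusted p = 0.0574), and after scaling to pan-B-cell genes MYC was higher by 0.62. MAX had 2545 and 2931 with MS8815 and 3068 and 3452 with DMSO. The groups did not overlap, but the DMSO replicates of MAX differed more than those of any other member, and its -0.25 (SE 0.10) did not pass (limma adjusted p = 0.0794). The ratio of MYC to MAX within a library, which scaling a whole library by 1 factor does not alter, was 2.17 and 2.09 with MS8815 and 2.67 and 2.30 with DMSO.

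The RNA polymerase I genes moved unequally. POLR1A had 4259 and 4370 with MS8815 and 4559 and 4304 with DMSO, overlapping values with a log2 fold change of -0.04 (95% interval -0.17 to 0.10, limma adjusted p = 0.602). POLR1B, the second largest subunit, had 1715 and 1657 against 2259 and 2340, with no overlap and a fold change of -0.45 (SE 0.07, limma adjusted p = 0.00306). UBTF, which binds and opens ribosomal DNA for the polymerase, had 5969 and 5703 against 8487 and 8073, a change of -0.50 (SE 0.05, limma adjusted p = 0.000502). The ratio of POLR1B to POLR1A, also free of such scaling, was 0.403 and 0.379 with MS8815 and 0.496 and 0.544 with DMSO. The call for POLR1B was lost when either DMSO library was left out (limma adjusted p = 0.0542 and 0.0701). Quantile normalisation made POLR1A higher, at 0.19 (limma adjusted p = 0.0361).

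All 6 nucleolar chaperones and scaffolds were called lower in the deposited normalisation, with a median log2 fold change of -0.65. LYAR, a nucleolar zinc-finger protein that promotes growth, had the lowest fold change of the 34, with counts of 2655 and 2505 against 4968 and 4926 (-0.94, SE 0.06, limma adjusted p = 9.21e-05). NCL had 30334 and 29808 with MS8815 and 54517 and 56046 with DMSO, a level of 54.4% of DMSO (-0.88, SE 0.03, limma adjusted p = 2.07e-05). DDX21, an RNA helicase that acts in both polymerase I and II transcription, had almost identical replicates, 12964 and 12957 against 21518 and 21514 (-0.73, SE 0.03). NOLC1, a chaperone of small nucleolar particles, had 6913 and 7255 against 10576 and 10435 (-0.57), and GNL3, nucleostemin, had 3375 and 3220 against 4675 and 4998 (-0.55). NPM1 changed least of the 6, from 39172 and 39915 to 30276 and 31044 (-0.37, SE 0.03, limma adjusted p = 0.000289). Within a library the ratio of NCL to NPM1 counts was 1.00 and 0.960 with MS8815, 1.39 and 1.40 with DMSO, and 1.31 to 1.36 in the other 4 libraries. Scaling a whole library by 1 factor leaves this ratio as it is.

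The modification particles showed narrow ranges. Of the box C/D proteins, 4 of 4 were called lower as deposited, from -0.74 for RRP9 to -0.52 for FBL. FBL had 6331 and 6334 with MS8815 and 8788 and 9389 with DMSO. NOP56, which with NOP58 forms the core on which the methyltransferase sits, had 6163 and 6602 against 10205 and 10101 (-0.67, SE 0.05). RRP9, the subunit specific to the U3 particle, which takes part in early cleavage of the RNA, had 1435 and 1411 against 2331 and 2421. All 3 box H/ACA proteins were called lower as deposited, between -0.67 (GAR1) and -0.57 (NHP2). DKC1, dyskerin, the pseudouridine synthase (chrX:154762742-154777689), had 5160 and 5863 with MS8815 and 8588 and 8694 with DMSO, with no overlap although the MS8815 replicates were apart.

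Small-subunit factors had a median of -0.37, and 5 of 6 were called lower as deposited. BYSL, bystin, a factor of small-subunit maturation, was not called, with 1790 and 1627 against 1914 and 1893 (-0.16, 95% interval -0.35 to 0.04, limma adjusted p = 0.155). WDR43, a scaffold of the early processome, had the widest replicate gap of the members, 2777 and 3896 with MS8815 against 4962 and 4586 with DMSO, so its -0.54 had an SE of 0.16 (limma adjusted p = 0.0280). Without MS8815 replicate 1 the value of WDR43 was -0.29 (limma adjusted p = 0.0551), and without replicate 2 it was -0.78 (limma adjusted p = 0.0128). NOP14 changed by -0.56, and UTP20 (-0.34), RRP12 (-0.35) and TSR1 (-0.38) by less.

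Large-subunit factors were called lower as deposited in 10 of 10 cases, with a median of -0.56. PES1, BOP1 and WDR12 form the PeBoW complex, which is needed to process the large-subunit RNA. PES1 had 4399 and 4347 with MS8815 and 6820 and 6777 with DMSO (-0.64, SE 0.04). BOP1 had 4577 and 4489 against 6655 and 6520 (-0.54, SE 0.05). WDR12 had 1486 and 1581 against 2649 and 2489 (-0.74, SE 0.07). In all 3 the groups were well apart, and their 95% intervals overlapped one another. RRS1, which brings the 5S particle to the pre-ribosome, had a fold change equal to that of NCL, with 1510 and 1586 against 2814 and 2886 (-0.88, SE 0.07, limma adjusted p = 0.000228). PPAN had the smallest difference of the 10, 2336 and 2149 against 2814 and 2925 (-0.36, SE 0.07, limma adjusted p = 0.00836).

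The members with CACGTG in the window and those without it did not separate by their fold change, with medians of -0.56 (14 genes, -0.94 to -0.16) and -0.51 (14 genes, -0.88 to -0.04). Members with a small nucleolar RNA gene inside had a median of -0.56 and the others -0.54. These medians are descriptions without a test.

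Quantile normalisation, which makes the libraries' distributions equal, moved the median of all genes to -0.20 and that of the members to -0.31, and 25 members were called lower and 1 higher, against 28.9% and 19.8% of all genes. Besides MYC, the calls lost were those of RRP12 (limma adjusted p = 0.171), UTP20 (0.0937), WDR43 (0.143), TSR1 (0.135) and PPAN (0.0857). Without DMSO replicate 1, calls were lost for POLR1B, given above, RRP12 (limma adjusted p = 0.103), UTP20 (0.0850), WDR43 (0.230), TSR1 (0.0748), NIP7 (0.0801) and PPAN (0.0822). Scaling to the pan-B-cell genes raised the median of all genes to 1.07. Counted against the median of all genes under the same scaling, 34 of 34 members lay below it as deposited and 26 of 34 after quantile normalisation. Abundant genes as a class lay low too. As deposited, 3478 of the 4422 genes at or above the lowest member's level had a log2 fold change below 0, and their number after quantile normalisation was not counted. Scaling to pan-B genes shifts members and all genes by nearly the same amount, so it is no separate check of the members' position against that median. The summed count of the 34 members divided by that of the 15 pan-B genes was 2.02 and 2.08 with MS8815, 1.51 and 1.52 with DMSO, and 1.46 to 1.48 in the other 4 libraries. As a share of all normalised counts the members made up 0.537% and 0.564% with MS8815 and 0.848% and 0.857% with DMSO.

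**Figure D2:**
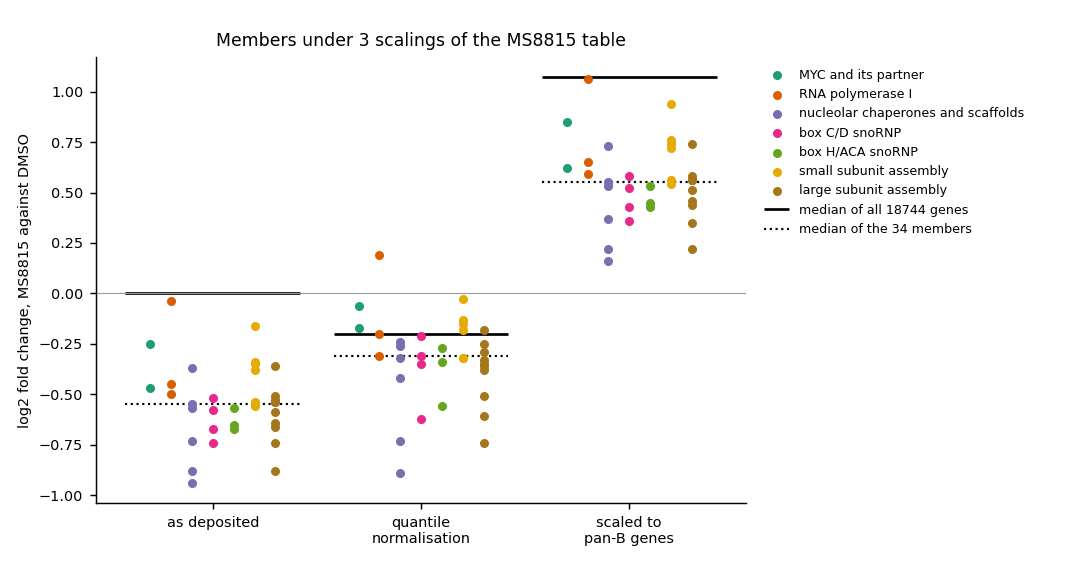
Log2 fold change of the 34 members, MS8815 against DMSO, in the deposited normalisation, after quantile normalisation and after scaling to the 15 pan-B-cell genes, coloured by role. Solid lines mark the median of all 18744 genes (0.00, -0.20 and 1.07) and dotted lines that of the members (-0.55, -0.31 and 0.55). The sign of the members' values depends on the scaling, and scaling to pan-B genes moves members and all genes together.

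Other genes of the same pathway, from lists chosen with earlier results known, were counted in the same way, as deposited and in the scale of the MS8815 table. Beside these counts, 22.4% of all genes and 60.0% of genes at or above the lowest member's level were lower, and 24.5% of all genes were higher. The medians of all genes and of genes at that level were 0.00 and -0.30. Of 12 further RNA polymerase I genes 7 were lower and 0 higher (median -0.41), among them POLR1E (938.7 ± 47.6 against 1332 ± 38.8, SD, n = 2, -0.51) and POLR1D (-0.35). Of 10 further snoRNP genes 9 were lower (median -0.52), with RUVBL1, an ATPase of particle assembly, at -0.77 and SNU13 at -0.60. In the small-subunit processome 33 of 40 were lower and 0 higher (median -0.55), and IMP4 had 2358 ± 8.54 against 4688 ± 40.7 (SD, n = 2, -0.99, limma adjusted p = 3.96e-05), with RRP7A at -0.89. In large-subunit assembly 28 of 40 were lower and 2 higher (median -0.47). RSL1D1 changed by -0.62 and PELP1 by -0.78, while the 2 higher genes, named after their values were seen, were EIF6 (0.45), which keeps the subunits apart, and DDX56 (0.28). Calls for POLR1E and POLR1D were lost without either DMSO library (limma adjusted p of 0.0561 to 0.0813), and that for POLR1D after quantile normalisation (-0.14, limma adjusted p = 0.112). Quantile normalisation kept the medians of these 4 lists below 0 (-0.38 to -0.28), beside -0.20 for all genes. Scaling to pan-B-cell genes turned them (0.55 to 0.69), with 11 of 12, 9 of 10, 34 of 40 and 39 of 40 genes higher and 0 lower, beside the 73.2% of all genes, and the lower genes named in this paragraph were then between 0.11 (IMP4) and 0.75 (POLR1D).

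Outside the ribosome, 17 of 20 other reported MYC targets were lower and 1 was higher as deposited (median -0.50). The counts were 14 and 2 after quantile normalisation (median -0.27), and 0 and 19 after scaling to pan-B genes (median 0.60). Over all genes 22.4% were lower and 24.5% higher as deposited, and 28.9% and 19.8% after quantile normalisation. As deposited, 60.0% of genes at member level were lower. After scaling to pan-B genes 73.2% of all genes were higher. HSPD1, the mitochondrial chaperonin, had 16989 ± 476.5 against 33265 ± 441 in the scale of the MS8815 table (SD, n = 2, -0.97, limma adjusted p = 1.53e-05), and HNRNPA1 changed by -0.66 as deposited. After scaling to pan-B genes HSPD1 stood at 0.13 and HNRNPA1 at 0.43. The 1 target called higher as deposited was CCND2, cyclin D2, named after its value was seen, with 28.1 and 29.8 against 1.97 and 1.29, too few reads in DMSO for a fold. Among 11 other genes of the MYC and MAX network 5 were higher and 2 lower, against 3 and 1 after quantile normalisation and 11 and 0 after scaling to pan-B genes. The lower ones were MNT (-0.38) and MGA (-0.40), both repressors that pair with MAX, and they were higher after scaling to pan-B genes (0.72 and 0.70). The higher ones were MXI1, a MAX-binding antagonist of MYC (172.4 ± 3.32 against 47.6 ± 16.4, SD, n = 2, 1.88, limma adjusted p = 0.00211), MXD1 (0.74), MXD4 (0.31), MYCL and MYCN. The level of MYCN was 27.6 ± 13.3 in the MS8815 libraries and 0.324 ± 0.458 under DMSO (SD, n = 2), too few reads in DMSO for a fold. MXI1 was no longer called after quantile normalisation (0.78, limma adjusted p = 0.0515, with MXD1 at 0.07 and limma adjusted p = 0.758) or without DMSO replicate 1 (limma adjusted p = 0.0551), nor MYCN without either DMSO library (limma adjusted p = 0.0973 and 0.0717). The adherent-cell markers given above moved with these rises, and their part was not tested.

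**Figure D3:**
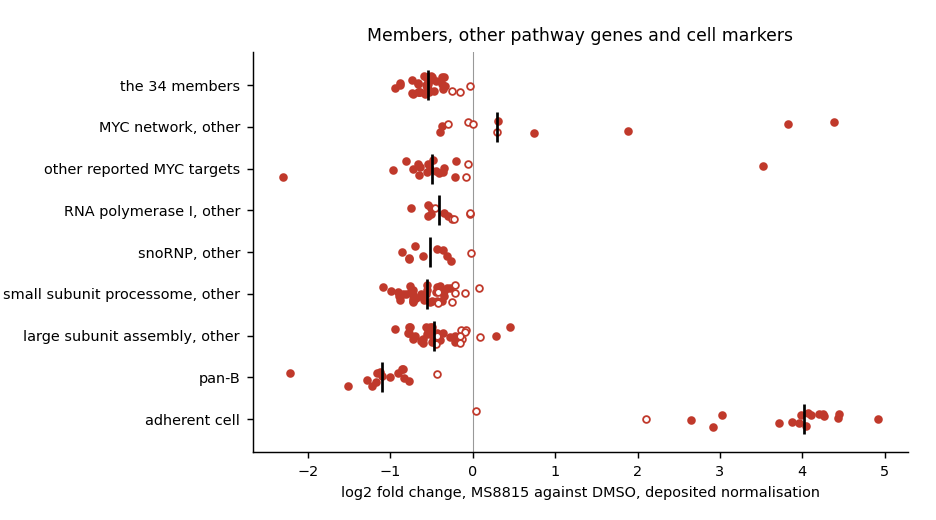
Log2 fold change of each gene, MS8815 against DMSO in the deposited normalisation, for the 34 members, 6 lists of other pathway genes and 2 marker lists. Filled points passed limma at an adjusted p under 0.05, open points did not, and bars are medians. The ribosome lists have medians of -0.55 to -0.41, between the pan-B genes at -1.10 and the adherent-cell genes at 4.02, and a scaling to pan-B genes shifts all of them upward. The median is 0.00 for all genes and -0.30 for genes at or above the lowest member's level.

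With EPZ-6438 the estimates of the members lay between -0.19 and 0.08. Limma called 0 of 34 in either direction, against 6 of 18320 genes (0.0328%), and at an unadjusted p under 0.05 there were 8 of 34 members, against 16.8% of all genes and 32.9% of genes at or above the level of the lowest member. The members' median was -0.05, against 0.01 for all genes and also -0.05 for genes at or above the lowest member's level. After quantile normalisation the members' median was 0.01. MYC had 7575 and 7696 against 8199 and 7954, so the groups did not overlap, with a fold change of -0.08 (95% interval -0.16 to 0.00, limma adjusted p = 0.269). The interval leaves out the -0.47 of MYC with MS8815 as deposited. That value was -0.17 after quantile normalisation and 0.62 after scaling to pan-B genes. Both EPZ-6438 libraries were below both DMSO libraries for 16 of 34 members, against 23.8% of all genes and 49.6% of those at member level, so the members' share is near that of genes of like level. They included 6 of 6 nucleolar scaffolds, 5 of which had an unadjusted p under 0.05. The lowest was NOLC1, with 9157 and 9315 against 10576 and 10435 (-0.19, SE 0.03, limma adjusted p = 0.0712). NOLC1 passed when the lower 50% of genes by level were removed (limma adjusted p = 0.0351) and in limma without a trend (0.0421). POLR1B (-0.14, 95% interval -0.33 to 0.05), LYAR (-0.14), POLR1A (-0.12) and NCL (-0.11, 95% interval -0.16 to -0.06, limma adjusted p = 0.114) did not pass. The 4 box C/D genes had estimates of 0.01 to 0.07, among them RRP9 (0.07), FBL (0.06) and NOP56 (0.04), and the highest member was NOP2, an RNA methyltransferase of the large subunit (0.08, 95% interval -0.06 to 0.22). PES1 (0.02), BOP1 (0.03), WDR12 (-0.06), DKC1 (-0.04), UBTF (-0.06), GNL3 (-0.08), DDX21 (-0.09), NPM1 (-0.06) and MAX (-0.02) lay within 0.1 of vehicle. Adherent-cell genes (16 measured) stood at a median of 0.35 with 0 called, 11 above 0 and 5 below. In the scale of the EPZ-6438 table their summed counts were 2583 to 2633 against 1886 to 2163 with DMSO. The summed pan-B counts in that scale were 168588 to 169236 against 169145 to 169716 with DMSO.

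MS8815N, the analog that is not a PROTAC, also gave 0 of 34 calls by limma, against 98 of 18398 genes (0.533%), and 5 of 34 members at an unadjusted p under 0.05 against 15.7% of all genes and 32.8% of those at member level. Both libraries were below both DMSO libraries for 15 of 34 members, against 23.2% of all genes and 46.4% of those at member level, again a share near that of genes of like level. The members' median was -0.03, against 0.00 for all genes and -0.05 for genes at or above the lowest member's level. After quantile normalisation the members' median was 0.02. MYC had 8042 and 7956, both between the 2 DMSO libraries (-0.01, 95% interval -0.09 to 0.06, limma adjusted p = 0.879). The lowest member was POLR1A, at 3977 and 3920 against 4559 and 4304 (-0.17, SE 0.04, limma adjusted p = 0.141), and the next were NOLC1 (9586 and 9562, -0.13, limma adjusted p = 0.0853) and TSR1 (-0.13, limma adjusted p = 0.165). NOLC1 again passed with the lower 50% of genes removed (limma adjusted p = 0.0481) and without a trend (0.0478). The EPZ-6438 and MS8815N comparisons share their DMSO libraries, so a low value in both is not independent. The highest were PPAN (0.06) and DKC1 (0.05, 95% interval -0.02 to 0.12). NPM1 stood at 0.00 (95% interval -0.05 to 0.05), NCL at -0.08, DDX21 at -0.07, FBL at -0.05, NOP56, PES1 and GNL3 at -0.03, BOP1 at -0.01 and WDR12 at -0.09. MAX (-0.02, 95% interval -0.17 to 0.12), POLR1B (-0.07, 95% interval -0.19 to 0.05) and UBTF (-0.06, 95% interval -0.16 to 0.05) did not pass. Of the other pathway genes 1 was called, HSPD1 (-0.14, SE 0.02, limma adjusted p = 0.0451), and not after scaling to pan-B genes (-0.08, limma adjusted p = 0.139) or without any 1 of the 4 libraries. Adherent-cell genes (16 measured) had a median of 0.50 with 0 called, 14 above 0 and 2 below. In the scale of the MS8815N table their summed counts were 2913 to 3259 against 2024 to 2322 with DMSO. Summed pan-B counts in that scale were 178703 to 179136 against 179641 to 180298.

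**Figure D4:**
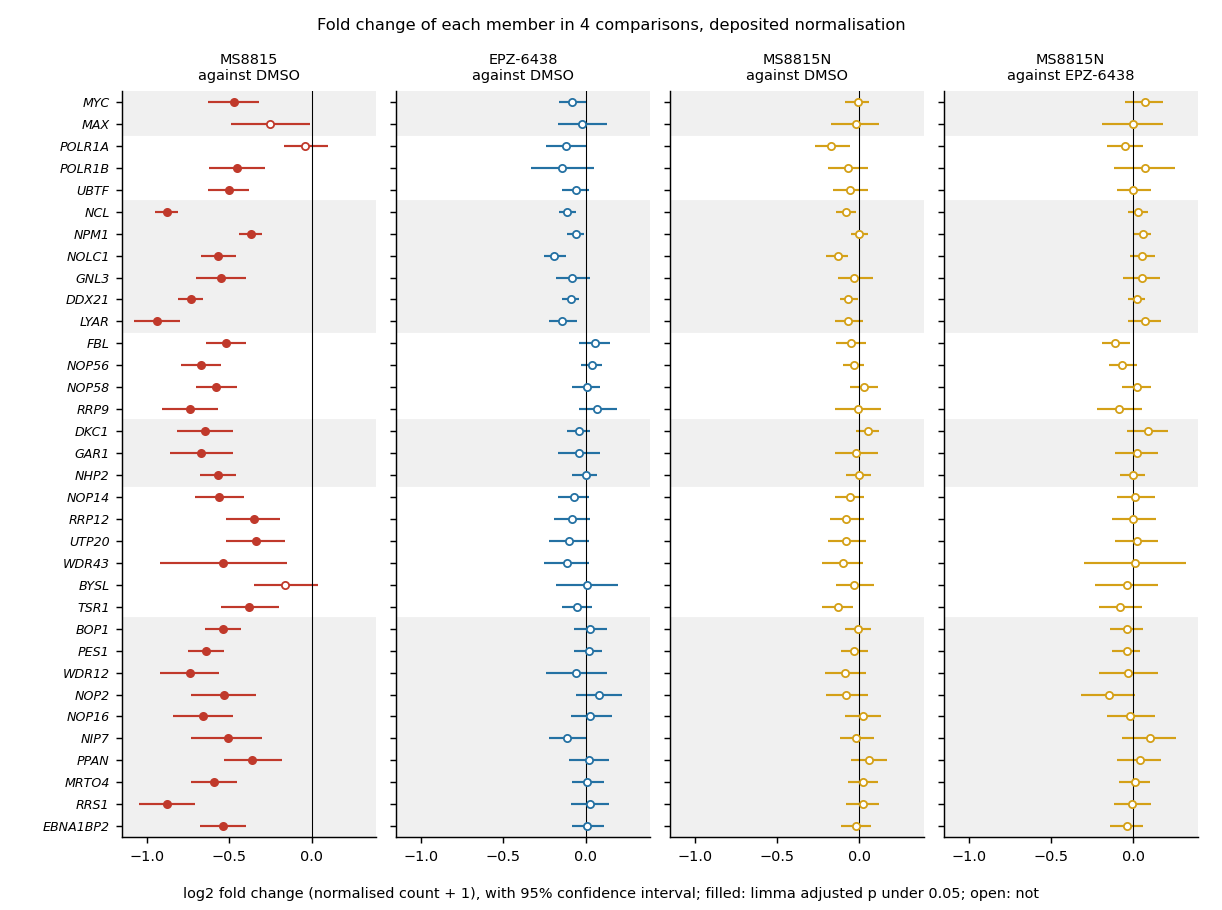
Log2 fold change of each member with its 95% confidence interval, for the 3 compounds against DMSO and for MS8815N against EPZ-6438, in the deposited normalisation. With MS8815, 31 of 34 members passed limma and lie below 0 (above 0 after scaling to pan-B genes), and in the other 3 panels 0 passed, with estimates between -0.19 and 0.10.

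Dose and time were the same for the 3 compounds, so the 3 pairs were compared directly over the 8 libraries. Between the PROTAC and its non-PROTAC analog, 32 of 34 members were lower with MS8815 and 0 higher (26.3% of 17467 genes lower, 63.5% of those at or above the lowest member's level). The members' median difference was -0.51, against -0.05 for all genes and -0.28 for those at or above that level. MYC differed by -0.46 (SE 0.05, 95% interval -0.57 to -0.35, limma adjusted p = 0.000105), NCL by -0.80 (SE 0.03), FBL by -0.47 and PES1 by -0.61. The differences of the other scaffolds were -0.36 for NPM1, -0.67 for DDX21, -0.43 for NOLC1 and -0.53 for GNL3. NOP56 differed by -0.64, DKC1 by -0.70, BOP1 by -0.53, WDR12 by -0.66, POLR1B by -0.38 and UBTF by -0.45. RRS1 (-0.90) and LYAR (-0.87) had the lowest values. BYSL (-0.13, 95% interval -0.32 to 0.06) and POLR1A (0.13, 95% interval 0.02 to 0.24, limma adjusted p = 0.0533) did not pass. POLR1A had both MS8815 libraries above both MS8815N libraries and was called higher with the lower 50% of genes removed (limma adjusted p = 0.0416) and after quantile normalisation (0.31, limma adjusted p = 0.000683). MAX was called lower (-0.23, SE 0.08, limma adjusted p = 0.0401), but not after quantile normalisation (-0.09), in limma without a trend (limma adjusted p = 0.119) or without MS8815 replicate 1 (-0.13) or either MS8815N library (-0.25 and -0.21). Quantile normalisation moved the median of the members to -0.33 (all genes -0.18), with 27 members lower and 1 higher, against 34.2% and 20.2% of all genes. Scaling to pan-B genes turned the differences that had been lower, with 34 of 34 members and 77.2% of all genes called higher and medians of 0.53 for the members and 0.98 for all genes.

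Between MS8815 and EPZ-6438, 32 of 34 members were again lower with the PROTAC and 0 higher (26.3% of genes lower, 61.5% of those at member level). The members' median was -0.56 as deposited, against -0.05 for all genes and -0.27 for those at member level. After scaling to pan-B genes 34 of 34 members and 77.7% of all genes were called higher, with medians of 0.54 and 1.03. After quantile normalisation 27 members were lower and 1 higher, against 34.5% and 20.6% of all genes, with medians of -0.33 and -0.19. MYC differed by -0.39 (SE 0.05, limma adjusted p = 0.000258), RRS1 by -0.91 and RRP9 by -0.81. The scaffolds NCL, NPM1, DDX21, NOLC1 and GNL3 differed by -0.77, -0.31, -0.64, -0.38 and -0.47 in that order. FBL differed by -0.58, NOP56 by -0.71, DKC1 by -0.61, PES1 by -0.65, BOP1 by -0.57, WDR12 by -0.69 and UBTF by -0.44, while POLR1A (0.08, 95% interval -0.03 to 0.19) and BYSL (-0.17) did not pass. POLR1A was higher after quantile normalisation (0.27, limma adjusted p = 0.00157). MAX was lower (-0.23, limma adjusted p = 0.0376), but not after quantile normalisation (-0.10), without a trend (limma adjusted p = 0.115), without MS8815 replicate 1 (-0.13) or without either EPZ-6438 library (-0.21 and -0.25). Without EPZ-6438 replicate 2, BYSL was called lower (-0.28, limma adjusted p = 0.0321) and POLR1B was not (-0.20, limma adjusted p = 0.0677, from -0.31). Both of these pairs rest on the same MS8815 libraries, with the marker values and depth given above.

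Between MS8815N and EPZ-6438 limma called 0 of 34 members, against 30 of 17467 genes (0.172%), and 2 had an unadjusted p under 0.05 against 6.13% of genes. These were FBL, at 8860 and 8680 with MS8815N and 9546 and 9328 with EPZ-6438 (-0.11, 95% interval -0.19 to -0.02, limma adjusted p = 0.701), and NPM1 (0.06, 95% interval 0.00 to 0.11, limma adjusted p = 0.798). MYC differed by 0.07 (95% interval -0.05 to 0.18), NCL by 0.03 (-0.03 to 0.09) and DDX21 by 0.02 (-0.03 to 0.07). NOP2 (-0.15, 95% interval -0.32 to 0.01) and NIP7 (0.10, 95% interval -0.07 to 0.26) marked the ends of the range, and DKC1 was next to the highest (0.09, 95% interval -0.04 to 0.21). Of the others, MAX and UBTF stood at 0.00, POLR1A at -0.05, POLR1B at 0.07, NOLC1 and GNL3 at 0.05, NOP56 at -0.07, PES1 and BOP1 at -0.04 and WDR12 at -0.03. A p that misses the threshold does not show that the compounds act alike, and these intervals give the differences that this fit allows. The fit uses 1 spread per gene over all 8 libraries, so the MS8815 replicates enter these intervals although they are outside this pair. For WDR43 the SE was 0.13 here, against 0.06 for EPZ-6438 and 0.05 for MS8815N, each against DMSO.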

How the data were processed

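RNA-seq of 8 libraries was compared in 3 tables, each holding 1 compound and the same 2 DMSO libraries. The authors deposited log2-type values, the variance-stabilising transform of DESeq2 per the file names, made per table. Per the submitters' processing notes, STAR 2.4.2, Salmon and GRCh38 were used. The gene model is not given in the sources used here. The transform was inverted to normalised counts in closed form. Shared DMSO libraries then differed between tables by 1 constant per gene and 1 per library (largest deviation 7e-11 log2 over 17219 genes), and the tables were joined on the scale of the MS8815N table. Levels printed per library are on that scale unless another is named, and marker sums and other listed genes are on the scale of the table compared. The gene constants varied with an SD of 0.128 to 0.141 log2, so levels between genes carry that uncertainty.

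Compound and DMSO libraries were compared by limma 3.58.1 in R 4.3.3, fitted with a mean-variance trend, on the deposited values of its own table (2 residual degrees of freedom). Log2 fold changes, standard errors and 95% intervals came from limma on log2(normalised count + 1). Compounds were compared with each other on log2(normalised count + 1) of all 8 libraries (4 residual degrees of freedom). Each gene then has 1 spread shared by all groups, including groups outside the pair compared. Tests were two-sided. Benjamini-Hochberg adjustment ran over every gene of the fit, with calls at 0.05. No low-value filter was applied. Fold changes with the pseudocount of 1 understate changes of low genes. Depth was estimated from the value of 1 read in low genes. Replicates differed by more than counting noise (median chi-square per gene 1.35 to 2.00). The fits were run on simulated counts, drawn from DMSO levels and spread, with known changes in a small share of genes. That setting lacks the broad shifts of the MS8815 libraries, so it cannot judge the MS8815 calls.

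The members and all lists were chosen with earlier results of these data known, so no test over a list is given. Named in each comparison were 16 listed members, the 2 highest and 2 lowest, each called member with EPZ-6438 or MS8815N, each uncalled member with MS8815, and up to 2 called genes with the smallest p of each other list. Ratios within a library and the scale-free sums were chosen after the values were seen. Alternatives were quantile normalisation, scaling to 15 pan-B genes, removal of the lower 50% of genes, pseudocounts of 0.1 and 10, a replicate block, limma without trend, limma on log2 counts, the joined fit and leaving out each library.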

Additional observations from a re-analysis of the deposited data

How the results depend on the processing

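Of the settings tried, the scaling of the MS8815 libraries had the largest effect on the MS8815 comparisons, since scaling to the pan-B genes turned the called members from lower to higher in all 3. Members called lower went to 0 and members called higher to 34 in MS8815 against DMSO, against MS8815N and against EPZ-6438, with medians of 0.55, 0.53 and 0.54. The log2 fold changes against DMSO that turned were 0.62 for MYC, 0.85 for MAX, 0.22 for NCL, 0.73 for NPM1, 0.58 for FBL, 0.45 for DKC1, 0.43 for NOP56, 0.46 for PES1, 0.56 for BOP1, 0.35 for WDR12, 1.06 for POLR1A, 0.65 for POLR1B, 0.59 for UBTF, 0.37 for DDX21, 0.53 for NOLC1, 0.55 for GNL3, 0.16 for LYAR, 0.22 for RRS1, 0.94 for BYSL, 0.59 for POLR1E, 0.75 for POLR1D, 0.33 for RUVBL1, 0.49 for SNU13, 0.11 for IMP4, 0.21 for RRP7A, 0.48 for RSL1D1, 0.32 for PELP1, 0.13 for HSPD1, 0.43 for HNRNPA1. Against MS8815N they were 0.58 for MYC, 0.81 for MAX, 0.24 for NCL, 0.68 for NPM1, 0.57 for FBL, 0.34 for DKC1, 0.40 for NOP56, 0.43 for PES1, 0.51 for BOP1, 0.38 for WDR12, 0.66 for POLR1B, 0.59 for UBTF, 0.37 for DDX21, 0.60 for NOLC1, 0.51 for GNL3, 0.14 for RRS1, 0.16 for LYAR, 0.91 for BYSL. Against EPZ-6438 they were 0.71 for MYC, 0.87 for MAX, 0.33 for NCL, 0.80 for NPM1, 0.53 for FBL, 0.49 for DKC1, 0.40 for NOP56, 0.45 for PES1, 0.53 for BOP1, 0.42 for WDR12, 0.79 for POLR1B, 0.66 for UBTF, 0.46 for DDX21, 0.72 for NOLC1, 0.63 for GNL3, 0.20 for RRS1, 0.29 for RRP9, 0.94 for BYSL. For MS8815N the same scaling moved the median from -0.03 to 0.03 against DMSO and from 0.01 to 0.07 against EPZ-6438. Quantile normalisation gave 1 member higher in each of the 3 MS8815 comparisons, POLR1A (0.19 against DMSO), and medians of -0.31 against DMSO and -0.33 against both MS8815N and EPZ-6438. Added after the data were seen, the same scaling to pan-B genes turned MNT (0.72) and MGA (0.70) against DMSO. The cause of these shifts was not tested.

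With the lower 50% of genes removed, and in limma without a trend, 1 member (NOLC1) was lower with EPZ-6438 and 1 with MS8815N, and the filter gave 1 member higher (POLR1A) in MS8815 against MS8815N. Over all genes the calls with EPZ-6438 were 3 higher and 3 lower, 66 and 226 with the filter, 48 and 121 without a trend, 11 and 14 on log2 counts and 0 in the joined fit. Those with MS8815N were 53 and 45, 121 and 261 with the filter and 84 and 168 without a trend. Leaving out each library in turn gave 23 to 31 members lower (median -0.59 to -0.54) in MS8815 against DMSO, 29 to 32 against MS8815N (-0.56 to -0.48) and 29 to 32 against EPZ-6438 (-0.58 to -0.52). The other 3 comparisons kept 0 called members in each such fit. Without either DMSO library, calls over all genes in MS8815 against DMSO fell to 1967 and 1953 higher and 1690 and 1630 lower, from 4589 and 4193, and a lone library is assumed there to vary like the other group.

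The replicate numbers are shared by the groups, but same-numbered libraries did not deviate together (correlations of deviations -0.04 to 0.02 over 8733 genes). The labels do not say whether same-numbered libraries were handled together, and these correlations do not settle it. A fit with the replicate block gave 32 members lower in MS8815 against DMSO (MAX added, limma adjusted p = 0.0205), 0 with EPZ-6438 and MS8815N, and 115 higher and 238 lower genes with MS8815N. Of 1627 single-gene values under all settings, 31 lost the call, 12 gained it and 68 turned while called in either fit. The other 1516 kept their side of the threshold, and uncalled values among them may have changed sign. The depth of the MS8815 libraries was 13.0 and 14.6 M reads, and its part in their replicate spread was not tested.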
